A study of Mus musculus with 7 samples.

Results

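The wild-type left ventricle was described from the 4 arrays whose titles name wild-type mice, of 7 arrays in all. Each array held RNA of the left ventricle of 1 male mouse aged 21 months, hybridized to an Affymetrix MOE430A chip. The mice were M23, M125, M128 and M158, and they carried both working copies of the gene for endothelial nitric oxide synthase (+/+). The other 3 arrays were of males of the same age without that enzyme (eNOS -/-), numbered M4, M10 and M140, and served here only as other hearts in which the same genes were read. The sources used here give neither strain nor treatment nor exercise state of single mice. The experiment sheets gave 4 hybridization days, numbered from the earliest: M128 was hybridized on day 1, M125 on day 2, and M23 and M158 on day 4. Day and mouse therefore cannot be told apart, except that M23 and M158 shared a day. Nothing in the labels says more of how the mice were drawn, and the spread between arrays may be partly technical.

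The left ventricle pumps blood into the body. Most of its volume is heart muscle cells, packed with sarcomeres (the contractile units of actin and myosin filaments) and with mitochondria, which make ATP mainly from fatty acids. Endothelial cells, fibroblasts, smooth muscle cells, pericytes and macrophages lie between them. In the adult mouse ventricle the fast alpha myosin heavy chain, Myh6, is the main motor, while the slow beta chain, Myh7, belongs to the fetal ventricle and to loaded hearts.

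A gene was represented by its probe set with the highest mean over the 4 arrays, which gave 12393 named genes. Of these, 8631 lay above the 40th percentile of their own array on at least 3 arrays and are called counted below. The median gene had a mean intensity of 901, and the brightest 5% of genes began at a mean of 8685. An intensity depends on the probes as well as on the transcript, so that ranks are ranks of signal. The marker Myh6 shows how far this goes, since its first probe set reached the end of the scale on all 4 arrays and its other one read 110, 109.7, 118 and 118 on M23, M125, M128 and M158. Spread is given as the SD over the 4 arrays of log2(intensity + 16), and no groups were compared, so that no test between groups was run.

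Markers of the labelled tissue were among the brightest genes. Myh6, Atp2a2 (which pumps calcium back into its store after each beat) and Myl2 (the regulatory light chain of ventricular myosin) stood at the end of the scale on every wild-type array. Of the 16 ventricular cardiomyocyte markers, 16 were in the brightest 5% and 11 were at the limit on all 4 arrays. The dimmest of them was Ryr2, the calcium release channel, with 17389, 16084, 18549 and 20418 on M23, M125, M128 and M158. In contrast, 9 of the 15 named skeletal muscle markers were not counted, against 3762 of all 12393 named genes. Myl1, Tnni2, Atp2a1 and Casq1 were among the markers that were counted.

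The scale ended at 45552 on M23 and M158, at 44145 on M125 and at 45291 on M128. Of all named genes, 33 reached that limit on all 4 arrays (0.266%), and 68 reached it on at least 1. The numbers per array were 41 on M23, 63 on M125, 46 on M128 and 35 on M158. These genes have no rank among themselves and no measurable spread, because each prints the limit of its array.

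The 33 genes at the limit were nearly all genes of contraction and ATP supply. The 4 lists of the respiratory chain and ATP synthase held 14 of them. They included Cox5a, Cox5b, Cox6b1, Cox6c and Cox7a2 of cytochrome c oxidase, which passes electrons to oxygen, and Atp5a1, Atp5c1, Atp5g3, Atp5h and Atp5k of ATP synthase. Ndufa13 and Ndufv3 of complex I, Uqcrb of complex III and Slc25a4, the carrier that exchanges ADP for ATP across the inner membrane, made up the rest. The sarcomere lists held 7: Myh6, Myl2 and Myl3 of the thick filament, and Actc1, Tnni3, Tnnt2 and Tpm1 of the thin filament. The lists of fuel use held 7, which were Fabp3 and Lpl of fatty acid uptake, Hadh of fatty acid oxidation, Mdh1 of malate conversion, Ldhb (the heart form of lactate dehydrogenase), Ckmt2 (mitochondrial creatine kinase) and Mb, the oxygen store myoglobin. Calcium cycling held 2, Atp2a2 and its inhibitor Pln. Rps29 was a ribosomal protein gene, and Tpt1 and the mitochondrial gene ND5 were in no list. On the 3 knockout arrays, 28 of the 33 were at the limit on all 3.

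Other probe sets of the same genes showed how much of this depends on the probes. Of the 33 genes, 24 had 44 other probe sets, of which 6 were at the limit on all 4 arrays, 25 were counted and at the limit on none, and 7 were not counted. For Atp2a2, the other probe sets ran from the limit down to 1245, 2444, 2876 and 1602 on M23, M125, M128 and M158. For Tpt1, which encodes the translationally controlled tumour protein, the other one read 280, 333, 392 and 238.

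**Figure D1:**
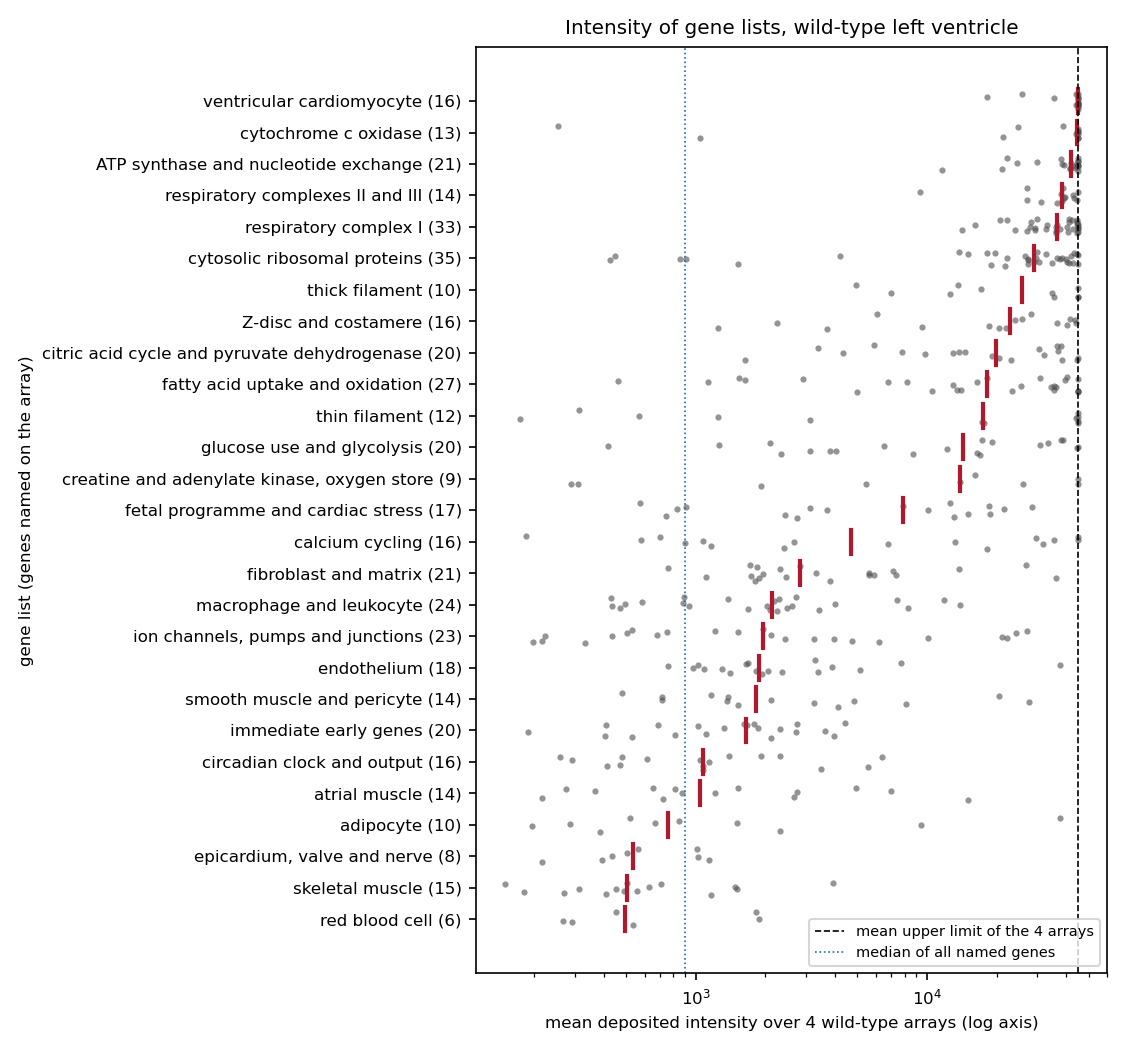
Mean deposited intensity over the 4 wild-type arrays (horizontal log axis) of each named gene (grey point) in 27 gene lists, with the list median as a red bar, the median of all named genes dotted and the mean upper limit dashed. Ventricular cardiomyocyte markers and the respiratory lists crowd at the upper limit, and the medians of skeletal muscle and red blood cell markers lie left of the median of all genes.

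Just below the limit, mitochondrial genes led again. Among genes not within 1% of the limit on any array, the 50 brightest had means of 35572 to 43460, and 20 of them were in a mitochondrial list, 7 were ribosomal protein genes and 3 were in a sarcomere list. The brightest was Vdac1, the pore of the outer mitochondrial membrane, with 44024, 43126, 43772 and 42917 on M23, M125, M128 and M158. Those values lay close together, with an SD of 0.02. It was followed by Rps28, Fth1 (the heavy chain of the iron store ferritin), Ndufa4, Slc25a3 (the mitochondrial phosphate carrier) and Chchd10. Cryab, a small heat shock protein that protects muscle filaments, read 43964, 42451, 35436 and 43484 and was lowest on M128. The other genes of the brightest 20 were Serf2, Rps24, Ndufc1, Ndufs8, Ndufb2, Acadl (long-chain acyl-CoA dehydrogenase of fatty acid oxidation), Micos10, Csrp3, Rps2, Uqcrq, Etfb, Atp5pb and Uqcrfs1. The median SD of the 50 was 0.087, against 0.162 over all counted genes. Values this near the limit can spread little upward, and without M128 the median of the 50 was 0.049, without M125 0.055.

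Energy genes were bright as a class. Of the 81 named genes of the 4 mitochondrial lists, 79 were in the brightest 5% of all genes. Of the 80 counted, 45 were clear of the limit by more than 1%, and their median SD was 0.118, against 0.163 over the 8556 counted genes clear of it. Intensity differs between these sets, and over all 247 counted genes with means above 20000, those at the limit included, the median SD was 0.105. Among the 172 with means of at least 20000 and clear of the limit, a choice made after the values were seen, it was 0.149, and 0.107 for the 40 mitochondrial ones. Ndufa10, a complex I subunit, was the only one of the 80 with an SD over 0.5, against 3.34% of all counted genes. It read 12173, 24778, 10777 and 16478 on M23, M125, M128 and M158, highest on M125. Sdhc, the membrane anchor of complex II, was the dimmest of complexes II and III with 8285, 11184, 5944 and 11934. Atp5g2, a copy of the ATP synthase ring subunit, went the other way with 14249, 21105, 29527 and 19276, highest on M128. Cox7c was the exception in level, with 286, 230.0, 257 and 241, so that it was not counted; this probe set is of the kind that several transcripts can share.

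Genes of fuel choice were bright as well, and their lists differed in spread. The median SD of counted members clear of the limit was 0.16 for fatty acid uptake and oxidation (22 genes), 0.22 for the citric acid cycle and pyruvate dehydrogenase (18 genes) and 0.37 for glucose use and glycolysis (17 genes). Over all counted genes with means from 5000 to 20000, where the medians of the 3 lists lay, it was 0.244. Pdk4, the kinase that shuts pyruvate out of the citric acid cycle when fat is burned, had the largest SD of the 3 lists. It read 7644, 36260.3, 28331 and 9657 on M23, M125, M128 and M158, an SD of 1.11. M125 and M128 were high and the day 4 arrays M23 and M158 were low, with no overlap. Slc25a20, which carries acylcarnitine into mitochondria, read 18198, 15000, 7050 and 15663 and was low on M128. Echs1, which hydrates the fatty acid chain, read 6212, 12742, 13630 and 9329 and was low on M23. Hk1, a hexokinase, read 4128, 4163, 1895 and 5047 and was low on M128.

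Families of isoforms showed which member carried the signal. In the sarcomere, 1 cardiac member led most families. Myh6, Myl2, Myl3, Actc1, Tnni3, Tnnt2 and Tpm1 were at the limit, while the skeletal members Myh1, Myh2, Myh4, Myh8, Tnnt3 and Tnnc2 were not counted. Other members of skeletal muscle were counted, such as Tnni2 with 1314 to 1653 and Tnnt1 with 1100.3 to 1468. Myh4, the fast skeletal myosin, was the dimmest skeletal marker with 154, 159, 155 and 131 on M23, M125, M128 and M158. Tnni1, the troponin I of the fetal heart and slow muscle, was near the bottom of the counted genes with 569, 569, 521 and 609. Tnnc1, the troponin C of heart and slow muscle, was at the limit on 3 arrays and read 41628 on M128.

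**Figure D2:**
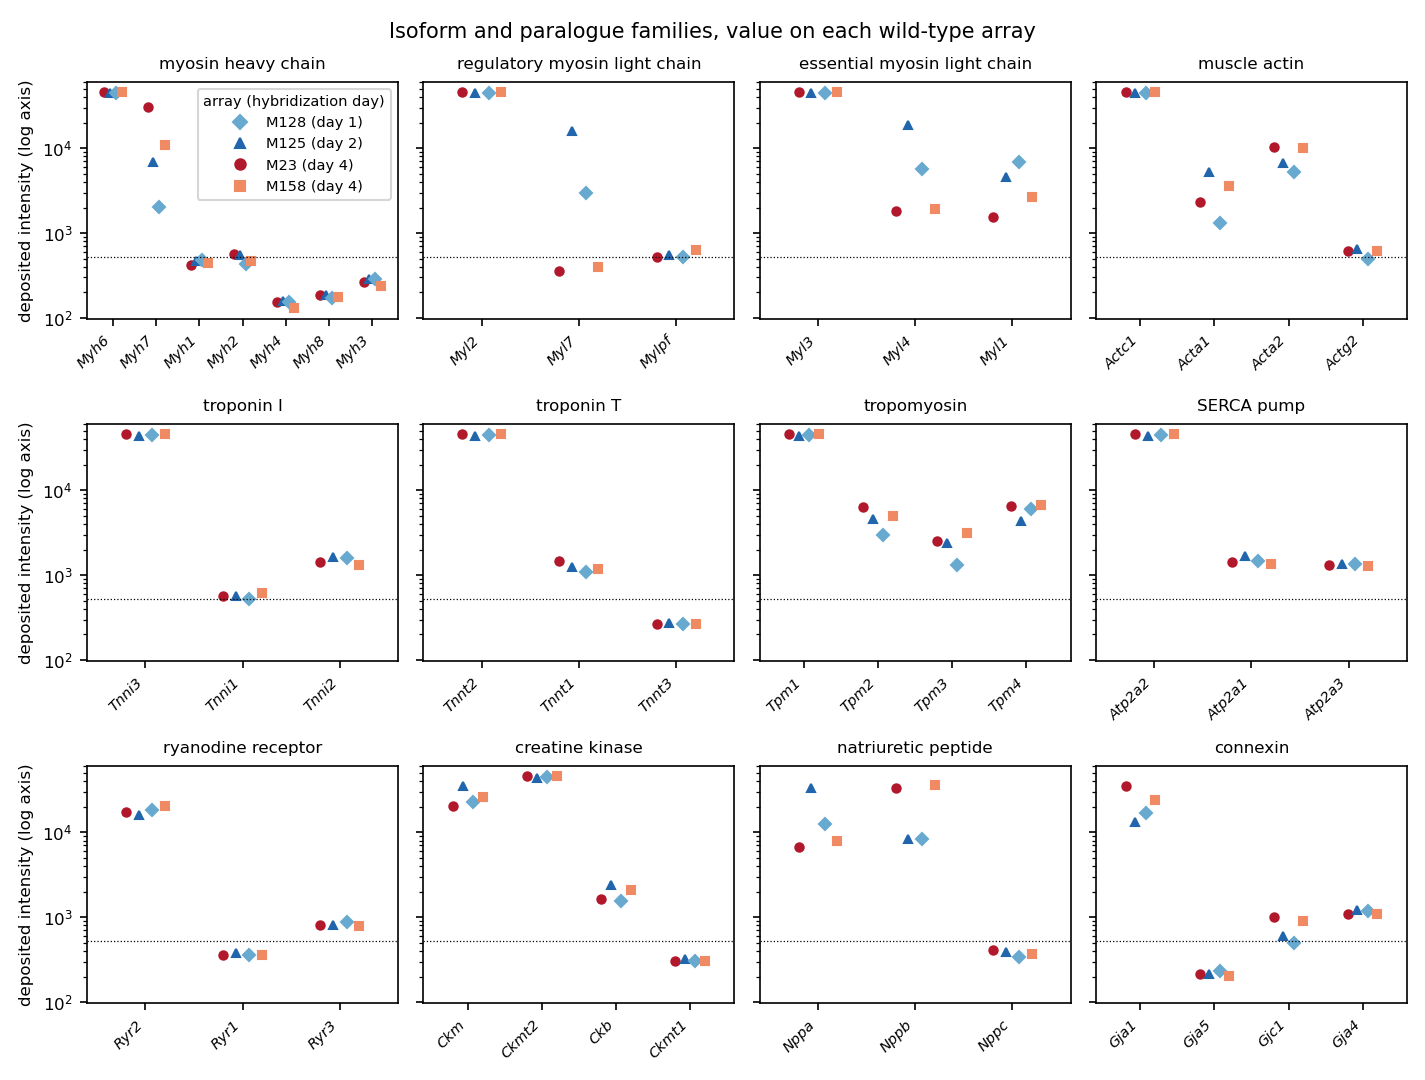
Deposited intensity (vertical log axis) on each of the 4 wild-type arrays for members of 12 families, with colour and shape for the array and a dotted line at the mean 40th percentile of the arrays. In most families 1 member lies at the upper limit on all arrays, whereas Myh7, Myl7, Myl4, Nppa and Nppb are spread over the scale.

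Actin and tropomyosin had several bright members. Acta2, the smooth muscle actin, read 10448, 6644, 5312 and 10168 on M23, M125, M128 and M158, higher on both day 4 arrays. Acta1, the skeletal actin that fetal and loaded hearts also use, read 2329, 5216, 1315 and 3553, an SD of 0.85. It was highest on M125 and lowest on M128. Tpm2, Tpm3 and Tpm4 had means below that of Tpm1, and each was counted.

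Calcium handling and excitation had the same form. Atp2a2 was at the limit, and its skeletal and non-muscle relatives Atp2a1 and Atp2a3 read 1358 to 1679 and 1273 to 1352. Ryr2 was bright, Ryr1 was not counted and Ryr3 read 784 to 889. Casq2, the cardiac calcium buffer of the store, read 26468, 30349, 31830.0 and 29387, and its skeletal relative Casq1 read 1064 to 1278. Among connexins, which join muscle cells electrically, Gja1 read 34748, 13187, 16979 and 24134, higher on both day 4 arrays with an SD of 0.61, while Gja5 of atrium and conduction fibres was not counted. The sodium pump alpha genes are not named here.

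Energy isoforms were less exclusive. Cox6a2, Cox7a1 and Cox8b, the muscle forms of 3 cytochrome oxidase subunits, had means in the brightest 100 genes, and the widely used forms Cox6a1, Cox7a2 and Cox8a were in the brightest 5% too. Ldhb was at the limit and Ldha, the muscle form, read 31641 to 34207. Fabp3, the heart fatty acid binding protein, was at the limit. Fabp4, the form of adipocytes and capillary endothelium, read 35210.3 to 41822, and the liver and gut forms Fabp1 and Fabp2 were not counted. Pfkm, Pgam2, Pygm and Eno3, the muscle forms of glycolysis and glycogen breakdown, were each the brightest named member of their family. Pygb, the brain form of glycogen phosphorylase, read 12667 to 19132, within the 11772 to 21941 of Pygm. Slc2a4, the insulin-dependent glucose transporter, read 4401, 7454, 7594 and 6597, and Slc2a1, the basal one, 3766, 2923, 2822 and 2911. Slc2a4 was lowest on M23 and Slc2a1 highest there.

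Promoter letters were read for the sarcomere genes, a choice made after their values were seen. RefSeq promoter windows (GRCm38.p6, 250 bases before to 50 after the start) were matched by symbol for 30 of the 35 counted sarcomere genes. The CArG box, the motif bound by serum response factor, was searched on both strands; it stood in 8 of the 30 (26.7%), against 1.57% of all 27025 windows and 1.46% of those of counted genes. The 8 genes were Actc1, Myl3, Fhl2, Ldb3, Myom1, Vcl, Acta1 and Dmd, with mean intensities from 1252 (Dmd) to the limit (Actc1 and Myl3). The median of their means was 20509, against 30216 for the 22 sarcomere genes with a window without the motif. A match is a description of letters only. The windows below are shown for the bright cardiac actin, the variable skeletal actin and the atrial light chain Myl7. They are the 250 bases before the start, with the CArG box and TATAAA in capitals, at chr2:114052876-114053125, chr8:123894776-123895025 and chr11:5898783-5899032, each on the minus strand.
Actc1: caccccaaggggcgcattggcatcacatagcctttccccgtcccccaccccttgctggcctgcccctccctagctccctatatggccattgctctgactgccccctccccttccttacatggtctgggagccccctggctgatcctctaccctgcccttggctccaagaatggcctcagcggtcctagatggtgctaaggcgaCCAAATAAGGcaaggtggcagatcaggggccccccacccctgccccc
Acta1: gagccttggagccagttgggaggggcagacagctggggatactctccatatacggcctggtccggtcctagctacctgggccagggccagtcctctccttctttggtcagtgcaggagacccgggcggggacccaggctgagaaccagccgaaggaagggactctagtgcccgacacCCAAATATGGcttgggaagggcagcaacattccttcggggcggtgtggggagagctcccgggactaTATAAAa
Myl7: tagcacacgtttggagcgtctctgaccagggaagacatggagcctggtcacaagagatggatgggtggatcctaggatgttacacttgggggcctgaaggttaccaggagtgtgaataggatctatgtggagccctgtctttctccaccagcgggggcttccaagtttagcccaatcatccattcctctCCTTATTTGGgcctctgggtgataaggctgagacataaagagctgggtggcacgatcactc

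Spread between the 4 hearts was small for most genes. The median SD over the 8631 counted genes was 0.162, the 10th percentile 0.055 and the 90th percentile 0.367. An SD over 0.5 was found for 288 genes (3.34%), and over 1 for 16. Without M158, 451 genes had an SD over 0.5, and without each other array 203 to 412. The filter asked for fewer arrays in those runs, so that the genes counted were not all the same. Genes of middle intensity spread most: the median SD was 0.118 for means under 1000, 0.186 from 1000 to 5000, 0.244 from 5000 to 20000 and 0.105 above 20000. By their construction, any background left in the low values and the limit of the high ones would both narrow a difference on the log2 scale.

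**Figure D3:**
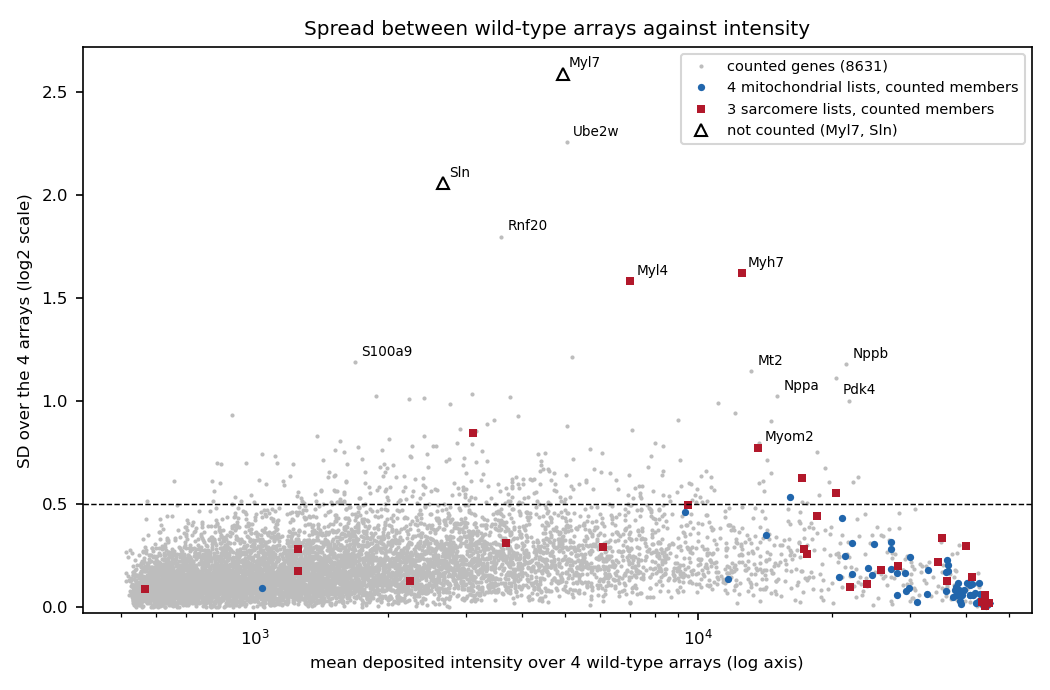
SD over the 4 wild-type arrays on the log2 scale (vertical) against mean deposited intensity (horizontal log axis) for 8631 counted genes (grey), with mitochondrial genes in blue and sarcomere genes in red, and with Myl7 and Sln, which were not counted, as open triangles. The dashed line marks an SD of 0.5; 1 mitochondrial gene lies above it, and Myl4 and Myh7 are the highest sarcomere genes.

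Myl7 and Sln, atrial genes that the filter on low values left out, also spread widely, and Myl7 had the largest SD of all. Myl7, the regulatory light chain of atrial myosin, read 356, 16097, 2926 and 399 on M23, M125, M128 and M158, an SD of 2.59. Sln, sarcolipin, the small atrial inhibitor of the calcium pump, read 445, 6762, 3071 and 358, an SD of 2.06. Both were high on M125, lower on M128 and near the dim end of the scale on the day 4 arrays. Myl4, the essential light chain of the atrium and of the fetal ventricle, followed the array order of Myl7 with 1831, 18585, 5738 and 1895.

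The whole atrial list was read in the same way. Of its 14 named members, 9 were highest on M125 (28.8% of all counted genes were highest there), and 12 were lowest on M23 or M158 (48.3% of all counted genes were). Its 9 counted members stood on average 0.58 above their gene means on M125 on the log2 scale, 0.04 above on M128, and lower by -0.32 on M23 and -0.30 on M158. Myl4 and Nppa carried much of this: without them, a choice made after the values were seen, the other 7 stood 0.24 above on M125. The summed intensity of the 14 was 85435 on M125 and 33699 on M128, against 17968 on M23 and 19082 on M158. Myl7, Myl4, Sln and Nppa held 74263 of that on M125, and the other 10 members 11171 there and 8438 to 9295 on the other arrays. Members differed: Nr2f2, Nr2f1 and Gja5 were not counted, while Kcna5, a potassium channel of the atrial list, read 2047, 1398, 1021 and 1640.0 and was highest on M23. In tissue RNA, fewer cells of a type and less RNA per cell cannot be told apart, and the part of atrial tissue in these values was not tested.

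Nppa and Nppb, which encode the natriuretic peptides that heart muscle releases under load, were high on different arrays. Nppa read 6717, 32819.9, 12669 and 7993 on M23, M125, M128 and M158. Nppb read 33621, 8385, 8423 and 35703. Nppa was thus high on M125 and Nppb on both day 4 arrays, and each had an SD over 1 (1.02 and 1.18). Myh7, the slow myosin of the fetal programme, was also higher on both day 4 arrays, with 30422, 6893, 2002 and 10761 and an SD of 1.62. Nppb and Nppa are neighbours on chromosome 4, and their 250 bases before the start (RefSeq, GRCm38.p6, plus strand, chr4:147985650-147985899 and chr4:148000472-148000721) are shown with TATAAA in capitals. Each holds it 1 time and neither holds a CArG box. TATAAA on either strand stood in 25.6% of the windows of the 50 most variable genes, 8.03% of those of counted genes and 14.2% of all. Those windows also hold the 50 bases after the start.
Nppb: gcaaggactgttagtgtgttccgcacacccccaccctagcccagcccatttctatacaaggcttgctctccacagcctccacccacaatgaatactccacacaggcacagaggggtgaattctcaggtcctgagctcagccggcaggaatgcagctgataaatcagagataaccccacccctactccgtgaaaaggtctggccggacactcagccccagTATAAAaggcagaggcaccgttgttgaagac
Nppa: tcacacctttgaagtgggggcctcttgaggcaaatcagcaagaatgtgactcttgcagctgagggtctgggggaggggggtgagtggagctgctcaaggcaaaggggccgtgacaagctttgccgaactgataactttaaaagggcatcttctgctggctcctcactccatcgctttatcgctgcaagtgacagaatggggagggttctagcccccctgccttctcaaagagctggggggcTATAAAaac

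Among the 20 most variable counted genes, 14 were higher on both day 4 arrays and 6 were lower on both. Ube2w, a ubiquitin-conjugating enzyme, led with 10474, 539, 709.9 and 8456 on M23, M125, M128 and M158, an SD of 2.26. Rnf20, a ubiquitin ligase of histone H2B, read 7553, 698, 765 and 5353. On the 3 knockout arrays, hybridized on days 1 and 3, Ube2w read 471 to 568 and Rnf20 868 to 1067, below both day 4 arrays in each case. The 2 other counted probe sets of Rnf20 had SDs of 0.22 and 0.09.

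**Figure D4:**
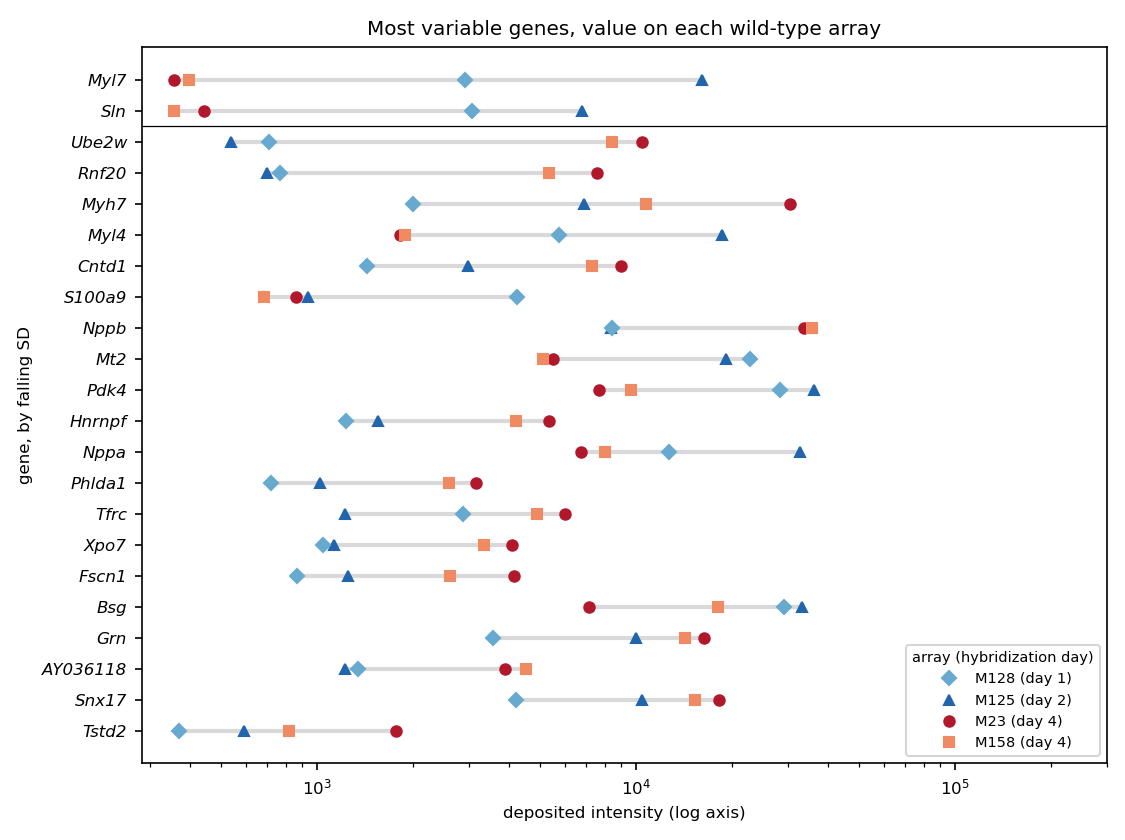
Deposited intensity (horizontal log axis) on each of the 4 wild-type arrays for the 20 counted genes with the largest SD, below Myl7 and Sln, which were not counted; grey bars join the lowest and highest array. The day 4 arrays M23 and M158 (red and orange) lie together at one end for all 20 counted genes.

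The genes lower on day 4 were Myl4, S100a9, Mt2, Pdk4, Nppa and Bsg. S100a9, a calcium-binding protein of neutrophils and monocytes, read 862, 942, 4241 and 683 and was high only on M128 of the 4 arrays. Mt2, a metallothionein that binds zinc and copper, read 5486, 19158, 22795 and 5119, an SD of 1.15. Its neighbour Mt1 had the same split with 22673, 40542, 30280.4 and 19961. The metal response element was searched by its core letters TGCGCNC or TGCACNC on both strands, which 25.6% of all promoter windows and 35.4% of those of counted genes hold. The 250 bases before the RefSeq start used here lie on the plus strand at chr8:94178839-94179088 (Mt1) and chr8:94172368-94172617 (Mt2). They hold 1 and 3 matches, in capitals, and no TATAAA. Matches beyond these bases were not counted, so that the counts are not those of the whole promoters.
Mt1: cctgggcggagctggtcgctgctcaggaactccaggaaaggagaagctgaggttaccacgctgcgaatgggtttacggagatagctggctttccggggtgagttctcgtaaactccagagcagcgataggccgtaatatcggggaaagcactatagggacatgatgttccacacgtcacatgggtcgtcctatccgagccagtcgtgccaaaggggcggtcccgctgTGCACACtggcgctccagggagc
Mt2: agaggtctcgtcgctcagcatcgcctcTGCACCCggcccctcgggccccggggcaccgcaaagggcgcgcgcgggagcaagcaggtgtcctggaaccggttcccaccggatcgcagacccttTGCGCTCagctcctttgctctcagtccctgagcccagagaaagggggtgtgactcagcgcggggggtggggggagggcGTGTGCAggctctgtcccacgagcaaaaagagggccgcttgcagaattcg

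The genes higher on day 4 were Ube2w, Rnf20, Myh7, Cntd1, Nppb, Hnrnpf, Phlda1, Tfrc, Xpo7, Fscn1, Grn, AY036118, Snx17 and Tstd2. Tfrc, the transferrin receptor that takes up iron, read 6003, 1223, 2881 and 4921, while its other counted probe set read 620, 644, 768 and 546 and was highest on M128. Grn, the growth factor progranulin, read 16343, 10007, 3568 and 14298, while its other probe set read 2645, 3929, 1858 and 3249 and was highest on M125. Hnrnpf, an RNA-binding protein of splicing, had 3 other probe sets. One of them (SD 0.58) followed the first with 2829, 1382, 1150.2 and 2124, and the other two had SDs of 0.26 and 0.23.

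Among the variable genes, the day 4 arrays often lay together at one end. These genes were chosen by their SD over the same 4 arrays. M23 and M158 were also the most alike pair (correlation 0.992), so that the choice itself favours such splits. Of the 288 genes with an SD over 0.5, 140 (48.6%) were higher on both day 4 arrays, against 20.6% of all counted genes, and 76 (26.4%) were lower on both, against 23.4%. M128 was the lowest array for 159 of the 288 (55.2%), against 31.7% of all counted genes. Probe sets of the _a_at, _s_at and _x_at kinds, which can match several transcripts, made up 50% of the 288 and 29.2% of all counted genes. Among those 144 of the 288, 62.5% were higher on both day 4 arrays, and among the 144 of the unique kind 34.7% were. The shares lower on both were 16.7% and 36.1%. With only M23 and M158, which shared a day, 77 genes had an SD over 0.5, and with only M125 and M128, of different days, 453 did. The filter asked for fewer arrays in these runs, so that a gene could pass it through its higher array alone. Neither count is therefore of the same set of genes as the 288.

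Control probe sets moved with the day as well. The bacterial control BioB, added to the hybridization mix, read 612 on M128 and 638 on M125, and 3014 on M23 and 4388 on M158. The ratio of the 5' to the 3' probe set of Gapdh, a measure of how complete the labelled transcripts are, was 0.777 on M125 and 0.683 on M128, and 0.098 on M23 and 0.340 on M158. That of Actb was 0.633 and 0.833, and 0.312 and 0.371. The 3' probe set of Gapdh was at or near the limit on every array, so that its ratio is not exact. The sheet of M23 carries a remark that its data join 2 rounds of processing. The part of these differences in the spread of single genes was not tested.

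Other probe sets and other hearts gave a second look at the 50 most variable genes. Of 33 other counted probe sets, of 22 of these genes, 13 (39.4%) were highest on the same array as the first, against 35.2% over all counted genes. With 3 arrays the shares were 67.7% without M23 (48.0% over all counted genes), 50% without M125 (39.9%), 58.6% without M128 (38.2%) and 48.4% without M158 (45.1%). Their median SD was 0.234, against 0.861 for the first probe sets and 0.186 for other probe sets over all genes, and 5 had an SD over 0.5. Those were probe sets of Ccl6, Cyp2b10, Rps9, Herpud1 and Hnrnpf. On the 3 knockout arrays, 22 of the 50 genes (44%) were among the 10% with the largest SD, against 10% of all counted genes. That background was not matched for intensity. With 50 genes chosen instead by SD over a trend on mean intensity, 16 (32%) were. Of the first 50, the share was 12 of the 17 that were lower on day 4 and 9 of the 29 that were higher. Myl4 had an SD of 1.63 there, S100a9 1.19 and Tfrc 0.97, while Ube2w had 0.14 and Rnf20 0.15. Nppb and Myh7 read at or near the limit on those arrays, which leaves their spread there unmeasured.

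Markers of the cells between the muscle fibres were present at middle intensity. All 18 named endothelial and all 21 named fibroblast and matrix genes were counted, against 8631 of all 12393 named genes. The list medians were 1875 and 2823. The brightest were Fabp4 of the endothelial list and Gsn and Mgp of the matrix list. Rgs5, a pericyte marker, read 28946, 23839, 28781 and 29059. Mgp, matrix Gla protein, which keeps calcium out of vessel walls, read 18009, 32622, 30010.5 and 27071, lowest on M23. Cldn5, a tight junction protein of endothelium, read 1814, 2982, 984 and 2440, and Aqp1, the water channel, 4226, 12965, 7691 and 5891; both were highest on M125.

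Leukocyte genes were higher on 1 array. Of the 24 named, 16 were highest on M128, against 28.1% of all counted genes, and the 20 counted ones stood on average 0.35 above their gene means there on the log2 scale. C1qb, a complement subunit made by tissue macrophages, read 1479, 3220.1, 4287 and 1808. Lyz2, lysozyme of myeloid cells, read 4228, 7829, 11285 and 6455. Cd74, the invariant chain of antigen presentation, went the other way with 4417, 3967, 2798 and 4781, and the B cell genes Cd79a and Cd79b were not counted. The summed intensity of the 24 was 99362 on M128 and 65679 to 70606 on the others.

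**Figure D5:**
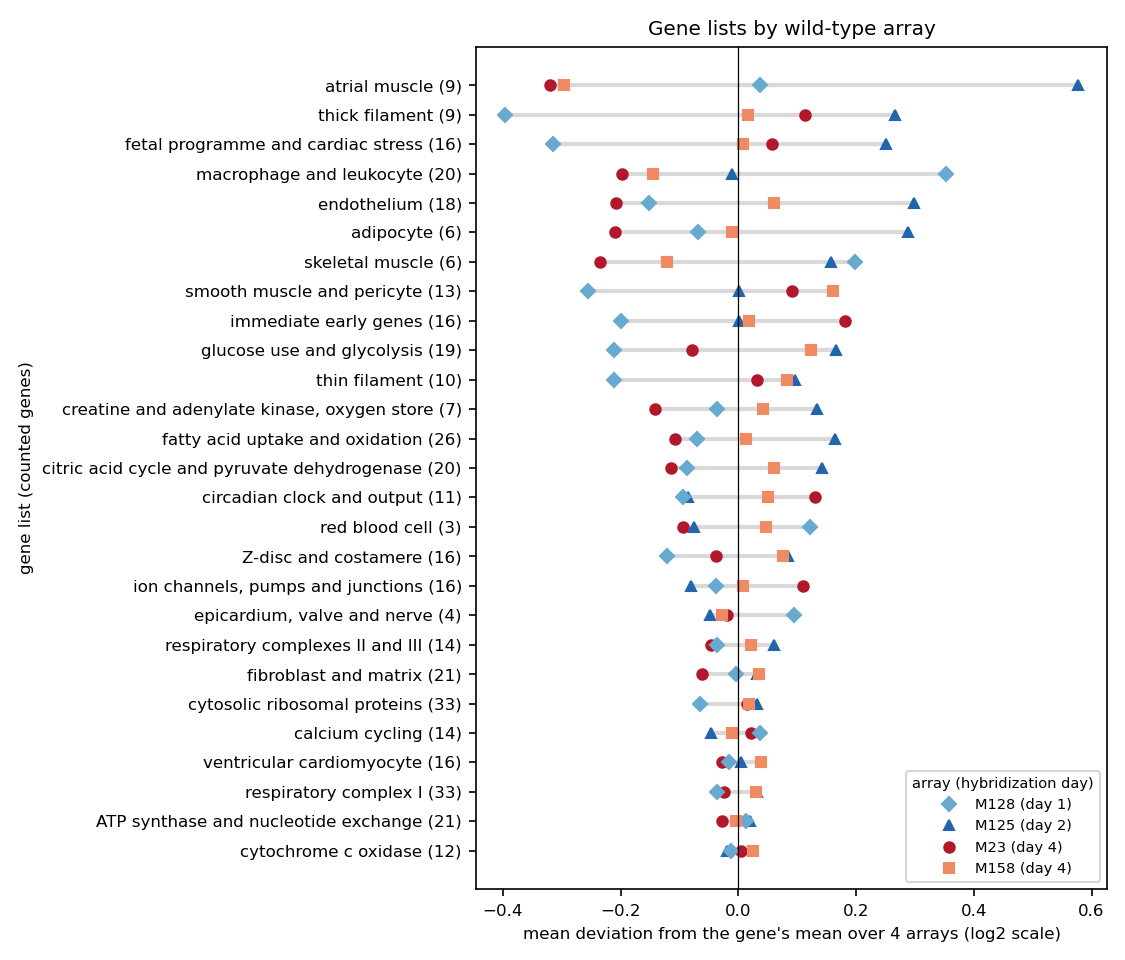
Mean deviation of the counted genes of each list from their own mean over the 4 wild-type arrays (horizontal, log2 scale), by array, with lists ordered by the range over the arrays. Atrial muscle lies highest on M125 at 0.58, thick filament lowest on M128 at -0.40, and the 4 respiratory lists stay near 0.

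Sarcomere genes below the limit were low on the same array. Of 24 counted sarcomere genes clear of the limit, 16 were lowest on M128 (31.7% of all counted genes were). An SD over 0.5 was found for 6 of the 24, against 3.34% of all counted genes. The median SD of the 24 was 0.284, and over all counted genes with means from 5000 to 20000 it was 0.244. Myom2, which links myosin filaments at the M-band, read 16646, 15464, 5593 and 16931. Des, desmin, the filament that ties sarcomeres together, read 16695, 26577, 12062 and 26380. Csrp3, the muscle LIM protein of the Z-disc, read 43861, 43433, 29071 and 44145. All 3 were lowest on M128. Myot, myotilin, was highest there with 5932, 11523, 12474 and 8062. The part of other cells in this was not tested; on M128 leukocyte markers stood 0.35 above their mean and fibroblast and matrix markers at -0.0048.

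Genes that respond within hours to stress or time of day were dim to middling. Of the 20 immediate early genes, 16 were counted, against 8631 of all 12393 named genes. None of the 20 was in the brightest 5%, and 2 had an SD over 0.5, against 3.34% of all counted genes. Atf3, a stress-induced transcription factor, read 2137, 765, 726 and 812 and was high on M23. Dbp, an output of the circadian clock, read 6507, 1810, 1754 and 3800, higher on both day 4 arrays. Its other probe set had the same split by less, with 1562, 1244, 1287 and 1695 and an SD of 0.21. Bhlhe40, a clock-linked repressor, had the same split with 2552, 1477, 1109 and 2481. Nr1d2, a repressor of the clock, was highest on M128 with 9525 and read 4743 to 5918 on the others.

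Most of the least variable genes read exactly the same on some of the arrays. Of the 20 with the smallest SD between the 60th percentile and the middle of the scale, 19 read the same on 2 or more arrays. Gm2a, the GM2 activator of lysosomes, read 2736 on all 4 arrays, and Tmem258 and Yipf5 also had 1 value each. In all, 11 counted genes had 1 value on all 4 arrays, and 16.5% read the same on 2 or more, so that an SD of 0 does not show a constant transcript. Among 876 genes with a mean from 5000 up to the middle of the scale at 22568 and with 4 different values, a choice made after the values were seen, Skp1 was the steadiest. Skp1, a core subunit of SCF ubiquitin ligases, read 6964, 7109, 7076 and 6847, an SD of 0.025. Isca1 of iron-sulfur cluster assembly, Rusc1, Cd36 (a fatty acid transporter) and Fam162a followed, with SDs of 0.027, 0.031, 0.035 and 0.037.

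Usual reference genes differed widely in spread on the probe sets used. Of 18 asked for, 14 were named and 5 had an SD under the median of all counted genes. Hprt, of purine salvage, read 4490, 4192, 4700 and 4738, an SD of 0.081. Actb, the cytoskeletal beta actin, read 7775, 3111, 2359 and 4770, an SD of 0.75, and was highest on M23. Its 3' control probe set read 5166, 5577, 3180 and 6692 on M23, M125, M128 and M158, highest on M158. Tfrc, also used as a reference, had an SD of 1.02, and its other counted probe set 0.198.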

How the data were processed

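The deposited values were intensities on a linear scale, 22690 probe sets per array; no source used here gives the software, background correction or scaling behind them. From the values, the deposited array medians were 671 to 689 on the wild-type arrays, the lowest values 86.6 to 92.3, and an upper limit ended each array. Whether background had been subtracted cannot be read from these values. The deposited experiment sheets, per the file headers written by the array workstation, gave hybridization days. The 64 control probe sets were left out. A platform table named 1 gene for 20380 of 22626 probe sets, several for 691 (not named) and none for 1555; the gene number of 20351 was found in RefSeq's GRCm38.p6 table.

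Values were used as deposited, as log2(intensity + 16) for SDs. The genes named are the ventricular markers, the families described, the 20 brightest below the limit, the genes at the limit, the 20 with the largest and smallest SD, and of each list the brightest 2, the dimmest and the 2 most variable; the gene lists, families and members were chosen with earlier results of these data known. Genes of the atrial, leukocyte and reference lists beyond that rule, and those of promoters, were chosen after their values were seen. Arrays were compared pairwise (correlations 0.977 to 0.992 over 22626 probe sets, 3.92% to 5.83% equal values) and none was a duplicate. The SD count was run on simulated data with noise below the median SD of the real genes and shifts far above it. There 200 of 200 changed genes among 8556 were found, with 0 others called. Those settings fixed the outcome, so that the run checks the code and not the SD threshold. Alternatives were the offset (1, 64), quantile normalization, limma 3.58.1 normexp, lowest value subtracted, the filter, the probe set kind, the number of variable genes and leaving out each array. Python 3.11.15 with pandas 2.3.3, and R 4.3.3, were used. Precision is limited by the number of arrays, 4.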

Additional observations from a re-analysis of the deposited data

Results flagged for a closer look

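Of 82 genes of the families and the 20 most variable genes, 5 had 1 array apart from the other 3 of the 4 by more than Dixon's 95% value. Chance alone flags about 1 in 20 of the genes examined, and 5 of 82 is near that rate. With the gene lists and control probe sets, 116 groups of 4 values were examined, and the same 5 were flagged. Ryr3, a ryanodine receptor of low level in heart, read 889 on M128 and 784 to 799 on the others. Slc2a1, the basal glucose transporter, read 3766 on M23 and 2822 to 2923 on the others. Pgam1, the widely used phosphoglycerate mutase, read 912 on M128 and 1369 to 1386 on the others. Cpt1a, the liver form of the enzyme that starts mitochondrial fatty acid import, read 1386 on M158 and 1698 to 1725 on the others. Csrp3, the muscle LIM protein, read 29071 on M128 and 43433 to 44145 on the others. The higher Csrp3 values lay close below the upper limit of their arrays, where values can spread little upward. None of the 27 gene lists, by its mean deviation per array, had an array apart by that measure. The causes were not tested.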

How the results depend on the processing

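Of 79 alternative values of 6 results, 64 stayed within 1.5 times the count, within the spread between arrays or within the 95% binomial interval of the share; the cause of the other shifts was not tested unless the setting itself gives it. Genes at the limit on all 4 arrays numbered 33, 56 within 5% of the highest value, and 11 where every probe set of the gene had to be at the limit. Genes with an SD over 0.5 numbered 288, 173 without probe sets of the _s_at, _x_at and _a_at kinds, and, chosen after seeing the data, 453 without M23 and M158 and 77 without M125 and M128. The median SD of 0.162 became 0.137 with no filter, 0.186 at the 60th percentile, 0.127 without M23 and M158 and 0.087 without M125 and M128. Wherever arrays were left out, the filter asked for all arrays kept but 1, so that the genes were not all the same. Leaving out each array in turn gave 33 to 36 genes at the limit, 203 to 451 genes with an SD over 0.5, a median SD of 0.127 to 0.165, a median SD of the 50 brightest of 0.049 to 0.098, a share with the same highest array of 48.4% to 67.7% and a share in the upper tail of the knockout arrays of 42% to 50%. The last share stayed within its interval in all 17 alternatives run, with values from 32% to 50%. The intervals of both shares are wide and treat genes or probe sets read on the same arrays as independent. Staying within them therefore says little about how steady a share is. No paired analysis was possible because the mouse numbers are not shared between groups and 1 group is described. The number of arrays, any background left in low values and the upper limit bound what can be seen.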

Other observations

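Lists described only in the plots held dimmer genes. For comparison, 8631 of all 12393 named genes were counted. Of 10 named adipocyte genes, 6 were counted, and Plin4, a coat protein of lipid droplets, read 6881, 13089, 9738 and 8009 on M23, M125, M128 and M158. Of 6 named red blood cell genes, 3 were counted, and Alas2, the first enzyme of red cell haem synthesis, read 1649, 1675, 2123 and 2050.3, a little higher on M128 and M158. In the epicardium, valve and nerve list, 4 of 8 named genes were counted and the highest SD was 0.13. Trdn, triadin, which anchors the calcium release channel, was the most variable of the calcium cycling list with 13640, 11843, 18616 and 9014. Myl1, the essential light chain of fast skeletal muscle, was the brightest skeletal marker and read 1558, 4607, 6881 and 2661, lower on both day 4 arrays.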
